A study of Mus musculus with 4 samples.

Results

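The S100 genes encode small calcium-binding proteins, each built around a pair of EF-hand motifs, and they were followed in mouse aorta after chronic treatment with rosiglitazone. The list holds 10 genes: S100a1, S100a3, S100a4, S100a6, S100a8, S100a9, S100a10, S100a11, S100a13 and S100b. Of these, 9 had a probe set with a single gene symbol, 16 probe sets in all out of 12422 on the array that are not controls. The only probe set for S100a11 (1) lists further symbols too, so no value is given for that gene. The genes were chosen by family name and by measured values of the same comparison, namely the rosiglitazone against vehicle changes of S100a8 and S100a9 set against the rest. The changes of the family members are therefore a description, given with standard errors, and no test of theirs is used as support. Counts of members past the thresholds applied to all probe sets are printed only beside the share of all probe sets.

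The RNA came from aortas of adult male C57BL/6J mice, pooled before hybridisation, on Affymetrix oligonucleotide arrays. In the rosiglitazone group the mice had received 25 mg/kg of the drug per day for 21 days, and in the vehicle group vehicle alone over the same 21 days. Each group had 2 arrays, numbered 1 and 2 for rosiglitazone and 3 and 4 for vehicle. The labels give neither the number of mice in a pool nor whether a group's arrays had separate pools, so the p-values measure only a spread between arrays that may be technical. Rosiglitazone is a thiazolidinedione that activates the nuclear receptor PPARγ, and the samples compare aortic transcripts between long treatment and vehicle.

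S100 proteins bind calcium and then expose a surface that docks onto target proteins. Most work as homodimers inside the cell, whereas S100a8 and S100a9 pair with each other to form calprotectin, which is abundant in neutrophils and monocytes and, once released, acts on the receptors TLR4 and RAGE. S100a4 and S100a6 are found in fibroblasts and smooth muscle, S100a10 binds annexin A2, S100a1 is known from striated muscle, and S100b from Schwann cells, other glia and adipocytes.

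Most of these genes lie together. In the gene order of the GRCm38.p6 annotation, S100a1, S100a13, S100a3, S100a4, S100a6, S100a8 and S100a9 belong to a single run of 12 protein-coding S100 genes, in which S100a9 directly follows S100a8. S100a11 and S100a10 form a separate run of 2, and S100b stands apart from both. The promoter windows of the 2 genes with the largest changes, and of S100a4 and S100a6, the next largest in the same direction, are shown to set their start regions side by side. Each window runs from 250 bases before to 50 after the annotated gene start, 5′ to 3′ on the gene's own strand, from RefSeq in build GRCm38.p6. The windows are chr3:90668821-90669120 on the plus strand for S100a8, chr3:90695672-90695971 on the minus strand for S100a9, chr3:90603520-90603819 on the plus strand for S100a4 and chr3:90612644-90612943 on the plus strand for S100a6. Capitals mark matches, on either strand, to any of 5 searched motifs: TTGCNNAA for C/EBP, GGNNNTTCC for NF-κB without its first base, TGANTCA for AP-1, AGGTCA for a nuclear receptor core site, and TATAAA for the TATA box.
S100a8 promoter: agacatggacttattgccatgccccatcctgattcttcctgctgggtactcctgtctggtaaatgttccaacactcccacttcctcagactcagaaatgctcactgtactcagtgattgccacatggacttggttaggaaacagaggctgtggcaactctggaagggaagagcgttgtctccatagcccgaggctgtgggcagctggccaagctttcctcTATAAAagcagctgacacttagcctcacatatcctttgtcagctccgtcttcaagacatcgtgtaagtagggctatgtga
S100a9 promoter: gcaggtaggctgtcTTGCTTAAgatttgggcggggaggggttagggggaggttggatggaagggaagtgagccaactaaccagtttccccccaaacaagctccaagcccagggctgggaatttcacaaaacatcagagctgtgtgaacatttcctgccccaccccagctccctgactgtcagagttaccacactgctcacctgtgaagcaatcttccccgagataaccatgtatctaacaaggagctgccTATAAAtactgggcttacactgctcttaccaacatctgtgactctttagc
S100a4 promoter: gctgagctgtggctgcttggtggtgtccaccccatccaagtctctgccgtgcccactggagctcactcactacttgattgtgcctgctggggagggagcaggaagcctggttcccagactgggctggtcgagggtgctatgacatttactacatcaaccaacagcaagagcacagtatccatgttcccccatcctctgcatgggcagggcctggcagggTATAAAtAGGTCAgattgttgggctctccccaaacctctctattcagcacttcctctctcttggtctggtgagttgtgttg
S100a6 promoter: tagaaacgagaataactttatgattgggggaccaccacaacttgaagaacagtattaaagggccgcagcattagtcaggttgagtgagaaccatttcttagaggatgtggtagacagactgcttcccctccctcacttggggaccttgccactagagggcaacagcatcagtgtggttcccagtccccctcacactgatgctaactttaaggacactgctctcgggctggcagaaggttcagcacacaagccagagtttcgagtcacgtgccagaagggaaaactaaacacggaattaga

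TATAAA was present in the windows of S100a8, S100a9 and S100a4, starting at position -30, 1 and -31 relative to the annotated start. That motif was in 13.6% of the 32851 promoter windows given by RefSeq. The S100a9 window also held TTGCTTAA, a match to the C/EBP motif, at position -236, a motif found in 10.8% of all windows. The AGGTCA in the S100a4 window, at position -24, stands just downstream of its TATA match, and 16.3% of all windows held that motif. The S100a6 window held no match to any searched motif, which says only that these letters are not there. The list has 12 windows for 9 genes, S100a3 having several and S100a10 no entry, and 4 of the 12 held TATAAA. NF-κB letters occurred in 1 of the 12 windows, that of an S100a3 start, against 18.5% of all windows, and AP-1 letters in 1, that of S100a11, against 7.81%. S100a1 and S100a13 lie head to head on opposite strands, and their windows share 204 bases, chr3:90514281-90514484.

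The 4 arrays were on a common scale, with a mean intensity of 1501 on each after trimming 2% of values at both ends and medians of 590 to 647. Values under 148, the 20th percentile of all values, were raised to 148 before log2 was taken, and this value is called the floor. Probe sets entered the fit when their mean log2 intensity was at or above the 40th percentile, an intensity of 414, which left 7134. Of the 16 S100 probe sets 13 did so, and the 3 that did not belonged to S100a1 and S100a3. The ratio of 3' to 5' signal for Gapdh, a gauge of RNA integrity, was 8.79 and 10.8 with rosiglitazone and 11.1 on both vehicle arrays, without overlap. The same ratio for actin was 7.74 and 9.62 against 8.88 and 11.9, with overlapping groups. For both controls the 3' signal was thus at least 7.74 times the 5' signal on all 4 arrays. The part of RNA integrity in the results was not tested.

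**Figure D1:**
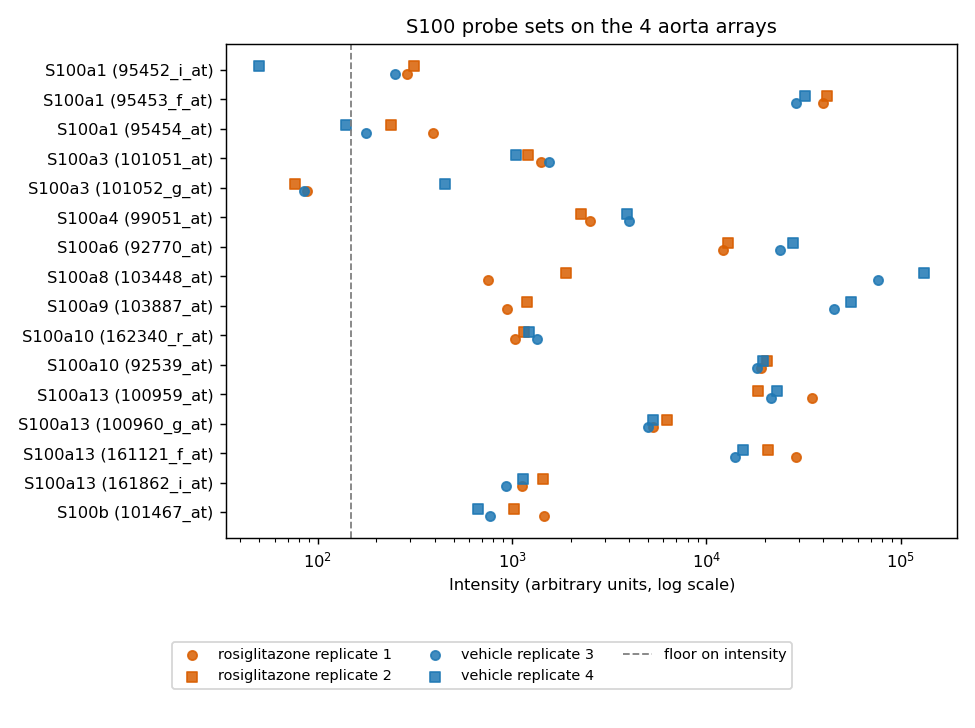
Intensity of each of the 16 S100 probe sets on the 4 arrays, on a log axis, with rosiglitazone arrays in orange and vehicle arrays in blue and a dashed line at the floor of 148. S100a8 and S100a9 are the probe sets whose groups lie more than 30-fold apart, and levels of different probe sets cannot be compared with each other.

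S100a8 and S100a9, the subunits of calprotectin, were lower with rosiglitazone by far more than any other member. S100a8 had intensities of 755 and 1883 under rosiglitazone against 76047 and 131937 under vehicle. S100a9 had 936 and 1199 under rosiglitazone against 45381 and 55514 under vehicle. For both genes the groups were far apart: the lower vehicle array exceeded the higher rosiglitazone array 40.4-fold for S100a8 and 37.8-fold for S100a9. All 4 values of each gene were above the floor, so the folds are not bounds. The log2 fold change of S100a8 was -6.39 with a standard error of 0.41, an 84.0-fold difference, and that of S100a9 was -5.57 with a standard error of 0.23, a 47.4-fold difference. Ordered from the largest fall, they took places 4 and 5 among the 7134 probe sets.

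Replicates of S100a9 were closer to each other than those of S100a8. The 2 rosiglitazone arrays differed 2.49-fold for S100a8 and 1.28-fold for S100a9, and the 2 vehicle arrays 1.73-fold and 1.22-fold. The log2 fold change of S100a8 was -5.73 without rosiglitazone replicate 1, or 53.2-fold, and -7.05 without rosiglitazone replicate 2, or 133-fold. For S100a9 it ran from -5.74 to -5.39 with any 1 array left out. Within an array, log2 S100a8 minus log2 S100a9 was -0.31 and 0.65 under rosiglitazone against 0.74 and 1.25 under vehicle. The difference was thus lower on both rosiglitazone arrays and the gap between the groups' nearest arrays was smaller than the gap between the arrays of either group. Among the members tested 2 of 13 passed an adjusted p of 0.05 in limma, S100a8 and S100a9, both lower, against 0.322% of all probe sets tested that passed in that direction. No member (0) passed as higher in limma, against 0.0421% of all probe sets. At an unadjusted p under 0.05 there were 4 members lower and 1 higher, against 5.76% and 5.12% of all probe sets tested. Since this comparison chose the members, nothing is read from these counts. With no filter on dim probe sets neither S100a8 nor S100a9 was counted. S100a8 was not counted with no intensity trend, without vehicle replicate 3 (log2 fold change -6.79) or without vehicle replicate 4 (-6.00).

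**Figure D2:**
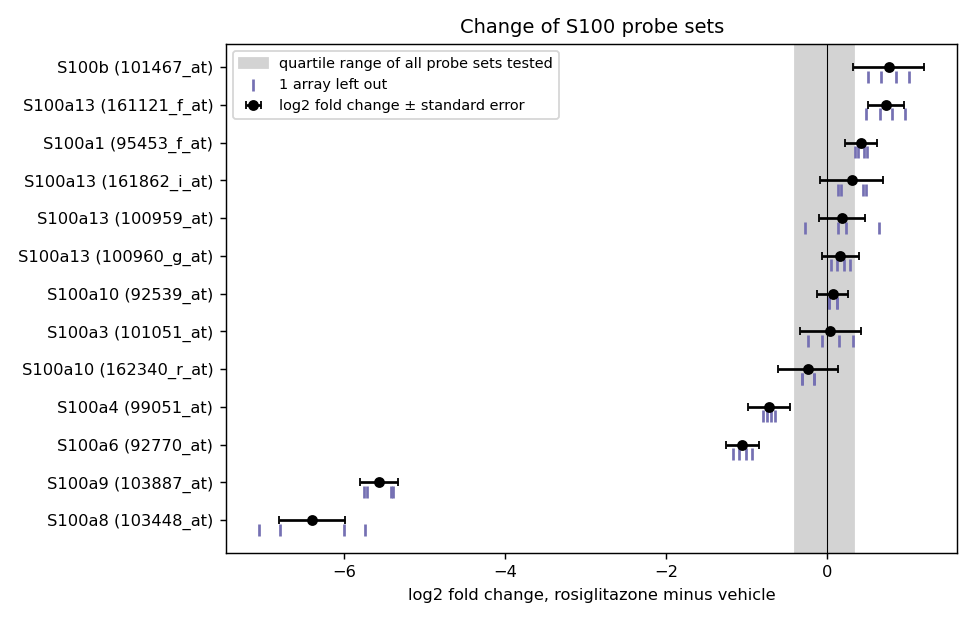
Log2 fold change, rosiglitazone minus vehicle, with its standard error for the 13 S100 probe sets tested, with purple ticks for the value when 1 of the 4 arrays is left out and a grey band from the first to the third quartile of all 7134 probe sets (-0.40 to 0.33). S100a8 at -6.39 and S100a9 at -5.57 stand far left of the other 11, which lie between -1.05 and 0.76.

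S100a6 and S100a4, intracellular proteins linked to the cytoskeleton and cell motility, were lower with rosiglitazone by smaller amounts. S100a6, also called calcyclin, gave 12130 and 12839 under rosiglitazone against 23901 and 27946 under vehicle. Its groups did not overlap, and its log2 fold change was -1.05 (standard error 0.20), a 2.07-fold difference. S100a4, known as fibroblast-specific protein and as a partner of nonmuscle myosin, had 2507 and 2274 under rosiglitazone against 3989 and 3878 under vehicle. Its groups did not overlap either, with a log2 fold change of -0.72 and a standard error of 0.26. The changes ranged with 1 array left out from -1.16 to -0.94 for S100a6 and from -0.79 to -0.65 for S100a4. Replicates were close, with SDs on the log2 scale of 0.06 and 0.16 for S100a6 (rosiglitazone and vehicle, n = 2 each) and of 0.10 and 0.03 for S100a4.

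In pooled tissue RNA, fewer cells of a type and less RNA per cell cannot be told apart. The summed intensity of the 9 smooth muscle markers on the array was 58614 and 63486 under rosiglitazone against 120186 and 144098 under vehicle, and that of the 9 fibroblast markers was 93098 and 107417 against 136057 and 161654. Both sums were lower on both rosiglitazone arrays, as were S100a6 and S100a4. All 9 smooth muscle markers had a log2 fold change below 0, with a median of -1.12, and 8 of 9 fibroblast markers, with a median of -0.57, where the median of all probe sets tested was -0.02. Tagln, an actin-binding protein of smooth muscle, was the 1 marker of either list that passed (log2 fold change -1.26, limma, adjusted p = 0.0455). It lost the call with no filter on dim probe sets, without vehicle replicate 3 and without vehicle replicate 4. The part of these cell types in the values of S100a4 and S100a6 was not tested.

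S100a10, the light chain of the annexin A2 complex that takes part in membrane traffic and plasminogen activation, was close to level. Its main probe set gave 19133 and 20596 under rosiglitazone against 18280 and 19478 under vehicle, with overlapping groups. The log2 fold change was 0.07 (standard error 0.19), and -0.008 under quantile normalization. A further probe set had 1035 and 1150 against 1351 and 1224, a log2 fold change of -0.24 (standard error 0.37). The 2 probe sets thus differ in sign, each by less than its standard error. S100a3, known from the hair cuticle, had overlapping groups at 1410 and 1212 under rosiglitazone against 1544 and 1046 under vehicle (log2 fold change 0.04, standard error 0.38). The sign of S100a3 changed with the array left out, from -0.24 to 0.32. Its dim second probe set was under the floor on 3 of the 4 arrays, at 88 and 76 under rosiglitazone against 85 and 453 under vehicle, and gives no fold.

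S100a1, S100b and S100a13 were higher with rosiglitazone on the probe sets whose groups did not overlap. S100a1, which in heart muscle binds the calcium pump and the ryanodine receptor, had 39720 and 41803 under rosiglitazone against 28841 and 32116 under vehicle. Its log2 fold change was 0.42 (standard error 0.19), and from 0.34 to 0.50 with 1 array left out. The other probe sets of S100a1 were dim and were not tested, with 287 and 313 against 249 and 50 on the first and 394 and 239 against 177 and 140 on the second. On both of these the rosiglitazone arrays were the higher ones, and vehicle replicate 4 was under the floor. S100b had 1456 and 1019 under rosiglitazone against 767 and 670 under vehicle, a log2 fold change of 0.76 (standard error 0.44). The value for S100b was 0.51 when rosiglitazone replicate 1 was left out and 1.02 when replicate 2 was.

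The 4 probe sets of S100a13, a protein involved in the release of FGF1 and interleukin 1 alpha without a signal peptide, were all above 0 but disagreed in size. The highest had 28875 and 20691 under rosiglitazone against 14012 and 15502 under vehicle, without overlap, a log2 fold change of 0.73 (standard error 0.22). Another had 34886 and 18507 against 21550 and 23081, where the 2 rosiglitazone arrays lay on either side of the vehicle arrays (log2 fold change 0.19, standard error 0.29). On that probe set the sign turned with the array left out, from -0.27 to 0.65. The remaining 2 had 5335 and 6250 against 4976 and 5322, and 1124 and 1440 against 930 and 1133, with log2 fold changes of 0.17 and 0.31. Of these only the former had groups apart, and by little. The probe set of S100a13 with the largest change, like the one tested for S100a1, carries the array design's mark for probes shared with similar sequences, so part of its signal may come from related transcripts.

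Across the family, 9 of the 13 probe sets tested had groups that did not overlap, 5 of them lower and 4 higher with rosiglitazone. Over all probe sets tested the groups were apart in 21.8% as lower and in 19.0% as higher. The median log2 fold change of the 13 was 0.07, against -0.02 for all 7134 probe sets. Nothing is read from this, since the same comparison chose the members. The sign was kept by 11 of the 13 with any 1 array left out and by 12 of the 13 under both alternative scalings, the exception in the latter being the main probe set of S100a10.

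Of 8 further S100 genes listed, 4 were on the array. S100a14, an epithelial member, had 2563 and 2784 under rosiglitazone against 4142 and 2920 under vehicle on the probe set that stood for it (log2 fold change -0.38, standard error 0.28) and overlapping groups on the other. S100a5 had 727 and 157 under rosiglitazone against 141 and 156 under vehicle, so only rosiglitazone replicate 1 was high. S100a16 was under the floor on all 4 arrays, and S100g, the intestinal calbindin, was dim, with no value above 337. None of the 4 had a log2 fold change near those of S100a8 and S100a9, the largest being the 1.15 of S100a5, which rested on that single array.

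Among cell surface receptors for released S100 proteins, 6 of 9 listed genes were tested. Of these 5 lay below 0 and 1 above. Groups were apart and lower with rosiglitazone for 3, against 21.8% of all probe sets tested. The test was passed by 1, as lower, against 0.322% of all probe sets tested. For this list and those that follow, 5.76% of all probe sets tested were lower and 5.12% higher at an unadjusted p under 0.05 in limma. Cd14, the co-receptor of TLR4 for lipopolysaccharide, had 3496 and 3642 under rosiglitazone against 27529 and 26830 under vehicle, a log2 fold change of -2.93 (standard error 0.20, limma, adjusted p = 1.45e-04). The call of Cd14 was lost with no filter on dim probe sets and with no intensity trend (limma, adjusted p = 0.0863 and 0.107). It was also lost without vehicle replicate 3 and without vehicle replicate 4, at -2.91 and -2.95. Ager, which encodes RAGE, had 702 and 513 against 678 and 1107 with overlapping groups (log2 fold change -0.53, adjusted p = 0.782). Mcam and Nptn, adhesion molecules that bind S100a8 and S100a9, had -0.42 each (adjusted p = 0.688 and 0.682), and the scavenger receptor Cd36 had 0.19 (adjusted p = 0.93). The median of the 6 was -0.42, and Tlr4 and its partner Ly96 were not analysed here. Of 13 listed signalling genes behind TLR4 and RAGE 8 were tested and none passed in limma (0, with 1 lower at an unadjusted p under 0.05), with a median of -0.24. That gene was Nfkbia, the inhibitor of NF-κB, at 5454 and 6374 under rosiglitazone against 12164 and 12951 under vehicle (log2 fold change -1.09, adjusted p = 0.078). Nfkbia passed without rosiglitazone replicate 2, at -1.20 (limma, adjusted p = 0.0483). Rela, an NF-κB subunit, had -0.21, Nfkbib had -0.42, and the kinases Mapk14 and Irak1 had -0.27 and 0.32, with adjusted p from 0.744 to 0.841.

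The annexins, the main docking partners of S100 proteins, did not pass the test. Of 9 tested in the list of annexins and scaffolds none passed in limma (0, with 2 lower and 1 higher at an unadjusted p under 0.05), and the median was -0.30. Anxa2, the partner of S100a10, had 16445 and 21568 under rosiglitazone against 20243 and 18634 under vehicle, with overlapping groups as for S100a10 (log2 fold change -0.04, standard error 0.21). Anxa1, the partner of S100a11, had 5866 and 4870 against 13282 and 10880, a log2 fold change of -1.17 (adjusted p = 0.078), and Anxa3 had -1.31 (adjusted p = 0.116). A second probe set of Anxa1 had -1.36 (adjusted p = 0.0687), while a further one, at 368 and 554 against 506 and 437, had overlapping groups. Anxa6, which binds several S100 proteins, had -0.42 (adjusted p = 0.536), and Anxa7 had -1.19 (adjusted p = 0.51). Anxa5 was the member above 0, at 28346 and 21828 under rosiglitazone against 17859 and 13344 under vehicle (log2 fold change 0.69, adjusted p = 0.315).

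Other binding partners did not pass either. Of 10 tested, 7 lay below 0 and 3 above, with a median of -0.49 and no call in limma (0, with 1 lower and 1 higher at an unadjusted p under 0.05). Myh9, the nonmuscle myosin heavy chain that S100a4 binds, had 1944 and 2539 under rosiglitazone against 3679 and 5617 under vehicle on the probe set that stood for it (log2 fold change -1.03, adjusted p = 0.222), whereas its other probe set had overlapping groups. Atp2a2, the calcium pump that S100a1 binds, had -0.65, and Sugt1, a co-chaperone that binds S100a6, had -0.45 (adjusted p = 0.51 and 0.559). Mapt, the microtubule protein tau that S100b binds, had 4726 and 10303 against 2063 and 2376 (log2 fold change 1.66, adjusted p = 0.0986). Mapt passed without rosiglitazone replicate 1, at 2.22 (limma, adjusted p = 0.00627), and had 1.09 without rosiglitazone replicate 2 (adjusted p = 0.145). Kcnk3, a potassium channel that S100a10 carries to the membrane, had 1.45 (adjusted p = 0.499).

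Transcription factors that act on S100a8 and S100a9 in myeloid cells had no change of like size. Of 6 tested, 3 lay below 0 and 3 above, with a median of 0.07 and no call in limma (0, with 1 lower and 1 higher at an unadjusted p under 0.05). Cebpb had 4190 and 9770 under rosiglitazone against 5492 and 7795 under vehicle, so both vehicle arrays lay between the rosiglitazone arrays (log2 fold change -0.03, adjusted p = 0.988). Cebpd had 2142 and 2191 against 2888 and 4077 (log2 fold change -0.66, adjusted p = 0.448), and Cebpa, which is also an adipocyte factor, had 0.52 (adjusted p = 0.384). Spi1, the myeloid factor PU.1, had 965 and 289 against 1014 and 1184 (log2 fold change -1.05, adjusted p = 0.599). Stat3 had 0.18 and Cebpg 0.31, with adjusted p of 0.852 and 0.902. EF-hand proteins outside the family also had no call in limma (0 of 12 tested, with 1 lower at an unadjusted p under 0.05), with a median of -0.09. Among them Capns1, the small subunit of calpain, had 0.48, the reticulocalbins Rcn2 and Rcn1 had -1.38 and -0.92, Hpcal1 had -0.30 and the matrix protein Sparc had -0.28.

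**Figure D3:**
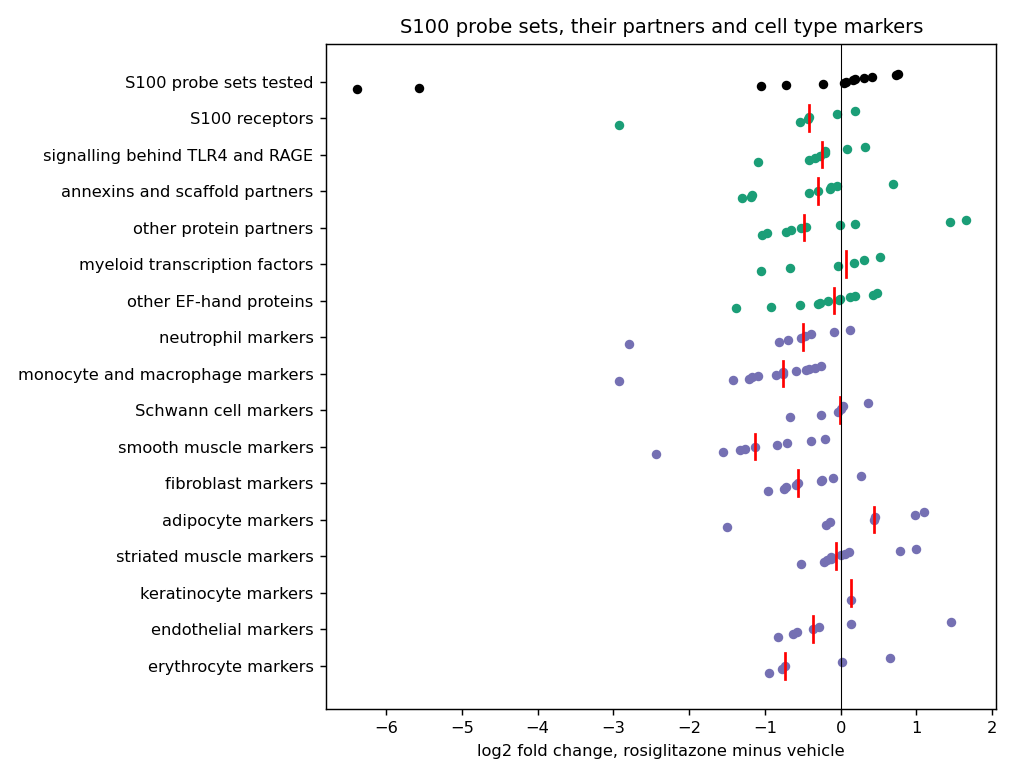
Log2 fold change, rosiglitazone minus vehicle, of the S100 probe sets tested (black), of the tested genes in each list of partners and related proteins (green) and of cell type markers (purple), with a red bar at each list's median. Each gene of a list is plotted by its brightest probe set, and on these none lies as low as S100a8 or S100a9, the lowest being Cd14 at -2.93. Lcn2 is plotted at -0.69, and its other probe set, not plotted, had -4.92 with both rosiglitazone arrays raised to the floor.

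Markers of the blood cells that carry calprotectin were set beside S100a8 and S100a9. Of 14 neutrophil markers 13 were on the array and 8 were tested, 7 of them below 0 and 1 above, with a median of -0.50. On the probe set used for each gene none passed in limma (0, with 2 lower at an unadjusted p under 0.05). Their summed intensity was 11217 and 7722 under rosiglitazone against 14002 and 13619 under vehicle, lower on both rosiglitazone arrays and 1.46-fold apart in the mean. The granule gene Camp had 1072 and 1191 against 2059 and 1919 (log2 fold change -0.81, adjusted p = 0.416), and Csf3r, the receptor for granulocyte colony-stimulating factor, had overlapping groups (-0.38, adjusted p = 0.827). Lcn2, a secreted iron-siderophore binder, passed on the probe set that did not stand for it (limma, adjusted p = 0.00214). That probe set had 145 and 57 under rosiglitazone against 3982 and 5054 under vehicle, at least 30.3-fold lower. The other, at -0.69 (adjusted p = 0.516), did not pass, and it alone entered the sum and the median of the list. Neither the sum nor the median therefore holds the larger fall of Lcn2. The Lcn2 call was lost with no filter on dim probe sets, without vehicle replicate 3 and without vehicle replicate 4. Mmp9, a granule gelatinase, had 101 and 187 against 1260 and 1062 (log2 fold change -2.80 with the lower value raised to the floor, adjusted p = 0.173). The granule genes Ltf, Mpo and Elane each had overlapping groups, whereas Camp, Mmp9 and Ngp were lower on both rosiglitazone arrays. No neutrophil marker was under the floor on all 4 arrays. Ngp and Ly6g, which were too dim to test, had 182 and 210 against 792 and 277, and 158 and 156 against 415 and 539.

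All 13 monocyte and macrophage markers tested lay below 0, with a median of -0.76, and Cd14 alone passed (1 of 13, with 7 lower at an unadjusted p under 0.05). Their summed intensity was 38965 and 36902 under rosiglitazone against 82815 and 88091 under vehicle, 2.25-fold apart in the mean. Cd14 alone held 3496 and 3642 of that sum under rosiglitazone against 27529 and 26830 under vehicle. Of the 13 tested, 11 had groups that did not overlap, lower with rosiglitazone, where 21.8% of all probe sets tested did. The share of all probe sets that were lower at an unadjusted p under 0.05 was 5.76%. Laptm5, a lysosomal protein of leukocytes, had -1.17 (adjusted p = 0.104), and the complement gene C1qc had -0.33 (adjusted p = 0.626). The part of neutrophils and monocytes in the values of S100a8 and S100a9 was not tested. Erythrocyte markers, a gauge of blood, had a summed intensity of 507139 and 669608 under rosiglitazone against 563914 and 658396 under vehicle, with overlapping groups, but most of that sum was Hba-a1, at 467487 and 616423 against 493863 and 569180. Of the 5 erythrocyte markers tested 3 were below 0 with groups apart and an unadjusted p under 0.05, and the median of the list was -0.73. They were Hbb-b2, a beta globin, Alas2, the erythroid enzyme of heme synthesis, and Bpgm, which makes a red cell regulator of oxygen release, at -0.78, -0.73 and -0.94 (limma, adjusted p = 0.335, 0.29 and 0.105). The part of blood content in the values of S100a8 and S100a9 was not tested.

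The lists that bear on S100b and S100a1 went as follows. Schwann cell markers, at 7 of 11 on the array, had a summed intensity of 7523 and 6585 under rosiglitazone against 9035 and 7014 under vehicle, with overlapping groups, and a median log2 fold change of -0.01, 3 of the 6 tested lying below 0 and 3 above. Sox10, which marks the lineage, had 1229 and 1449 against 1583 and 1076, and the myelin gene Mbp had 2377 and 1326 against 1680 and 1139, both with overlapping groups. Pmp22, a further myelin gene, had 1407 and 1296 against 2002 and 2316, lower on both rosiglitazone arrays whereas S100b was higher (log2 fold change -0.67, adjusted p = 0.486). Adipocyte markers had 543224 and 586376 under rosiglitazone against 393127 and 392392 under vehicle, higher on both rosiglitazone arrays, as was S100b. Of the 7 tested 4 lay above 0 and 3 below, with a median of 0.44. Adipoq, Cidea and Ucp1, the last 2 of them markers of brown fat, had log2 fold changes of 0.46, 0.44 and 0.98 (adjusted p = 0.51, 0.553 and 0.201), and these 3 made up most of the sum. Retn, Fabp4 and Lep, the markers below 0, had -1.51, -0.19 and -0.14 (adjusted p = 0.506, 0.846 and 0.901). Striated muscle markers had 36455 and 38951 against 39680 and 44599, lower on both rosiglitazone arrays, with a median of -0.06. Of the 10 tested 5 lay below 0 and 5 above. Actc1, the brightest of them, had overlapping groups, at 8757 and 14458 under rosiglitazone against 14000 and 18776 under vehicle. Endothelial markers had overlapping sums, at 13546 and 15793 against 14652 and 18988. Keratinocyte markers had sums higher on both rosiglitazone arrays, at 4263 and 3562 against 3217 and 2490, and 1 of 7 was bright enough to test. That marker, Lor, had overlapping groups, at 2428 and 1425 against 2278 and 1244 (log2 fold change 0.14, limma, adjusted p = 0.931). The part of adipocytes, nerve or muscle in the values of S100b and S100a1 was not tested.

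**Figure D4:**
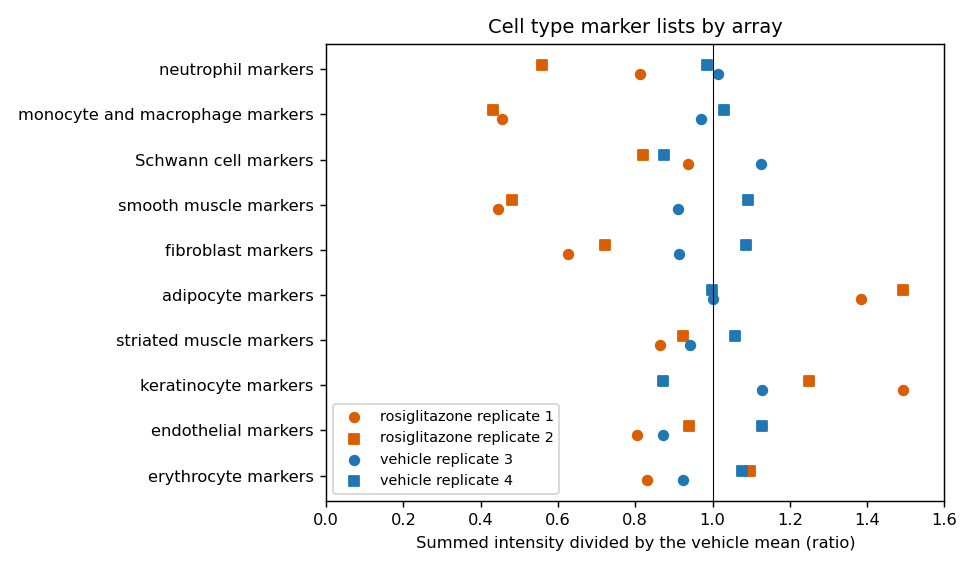
Summed intensity of each cell type marker list on each array, divided by the mean of the 2 vehicle arrays, with rosiglitazone in orange and vehicle in blue. Smooth muscle, fibroblast, monocyte and neutrophil sums are lower on both rosiglitazone arrays, adipocyte sums are higher on both, and erythrocyte sums, which are mostly Hba-a1, overlap although 3 of the 5 erythrocyte markers were lower without overlap.

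The probe sets with the profile most like that of S100a8 and S100a9 over the 4 arrays were sought by the Euclidean distance between log2 values centred on each probe set's mean. For S100a8 the nearest was the chemokine Cxcl2, at a distance of 1.10, followed by S100a9 at 1.13, Il1b at 1.27, the serum amyloid Saa3 at 1.31 and Lcn2 at 1.77. For S100a9 the nearest was Lcn2 at 0.69, followed by Cxcl2 at 1.07, S100a8 at 1.13, Il1b at 1.33 and Wfdc21, a secreted protease inhibitor-like protein, at 1.34. This distance depends largely on the size of the group difference, the value for which S100a8 and S100a9 were chosen. Saa3, Il1b, Cxcl2, Lcn2 and Wfdc21 took places 1, 2, 3, 6 and 10 from the largest fall, so nothing is read from their nearness. These 5 genes outside the family all had both rosiglitazone arrays under the floor, so their distances depend on where the floor lies. S100a8 and S100a9 were the pair with no array under it.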

How the data were processed

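Gene expression was measured on 4 arrays of pooled aortic RNA, 2 per group. The authors deposited linear intensities as whole numbers, with no detection calls beside them. The background correction, scaling and software are not stated in the labels used here. Array medians over all rows were 591, 620, 648 and 635. Array medians differed by at most 0.13 on the log2 scale, so no scaling was added. Symbols came from the platform's probe table and were updated through gene identifiers in a GRCm38.p6 gene table (10817 of 10833 found, 0 changed), which served for names and gene order. Of 12422 probe sets, 396 had several symbols and 1193 had none, and 66 control probe sets were left out.

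After the floor of 148 and the filter at 414, log2 values of 7134 probe sets were fitted in limma 3.58.1 (R 4.3.3) by lmFit and eBayes (trend on mean intensity). Tests were two-sided and p-values were adjusted by Benjamini-Hochberg over all of them. The fit had 2 residual degrees of freedom and a median of 7.14 prior ones. The procedure was tested on simulated data in which only probe sets well above the filter were changed. That test does not bear on probe sets near the floor. The members and the gene lists were chosen with earlier results of these data known. Genes were named by rule: all members, up to 5 genes of each partner list by smallest p, Anxa2, Anxa1, Ager, Cebpb and Cebpd, up to 3 of each marker list by intensity, and the 5 nearest profiles. A gene's brightest probe set stood for it in a list. Other genes, and other probe sets of the same gene, were named after their values were seen. Alternatives were other floors, filters and scalings, no intensity trend, and 1 array left out.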

Additional observations from a re-analysis of the deposited data

How the results depend on the processing

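The number of arrays limits the precision. S100a8 and S100a9 were lower under all 11 alternatives, from -7.05 to -5.73 and from -5.74 to -5.39 with 1 array left out. Lower calls over all probe sets numbered 23, against 15 with arrays centred on their medians, 7 with no intensity trend and 0 with no filter on dim probe sets (668 at an unadjusted p under 0.05 in limma), and from 1 to 58 with 1 array left out. Higher calls numbered 3, against 0 with no intensity trend (220 at an unadjusted p under 0.05) and 0 with no filter (534), and from 0 to 20 with 1 array left out. Of the S100 probe sets 2 were called lower, against 1 with no intensity trend, 0 with no filter (4 at an unadjusted p under 0.05), and from 1 to 2 with 1 array left out. Centring on medians moved the median of all log2 fold changes from -0.02 to 0.06.

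The counts that follow leave out probe sets named only as cell type markers, Tagln among them, and further probe sets of partner genes. Among 37 other named probe sets 7 changed sign at least once, in 12 cases, none of them called. The called ones were Cd14, Cxcl2, Il1b, Lcn2, Saa3 and Wfdc21, and all 6 lost the call at least once, each with no filter on dim probe sets. Mapt and Nfkbia gained a call with 1 rosiglitazone array left out. With arrays centred on their medians Anxa2 had 0.038 and Cebpb 0.050. With 1 array left out Anxa2 ran from -0.24 to 0.15, Cebpb from -0.64 to 0.58, Cd36 from -0.23 to 0.62, Irak1 from -0.39 to 1.03, Nfkbib from -0.91 to 0.079, Sparc from -0.60 to 0.048 and Stat3 from -0.035 to 0.39. The cause was not tested. No paired analysis was possible because the labels give the groups no shared replicate number.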
